A study of Mus musculus with 8 samples.

Results

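The genes described here are 43 genes of DNA replication origins and forks, named by a fixed list. No measured value was used to pick its members, but the list was chosen with earlier results of these data known. They cover the loading and firing of origins, the replication fork, the supply of deoxynucleotides, the repackaging of new DNA and the E2F regulators of these genes. Of the 43, 42 were measured by a probe set that names 1 gene, among 22180 genes in all. Rfc4, a subunit of the clamp loader, was not analysed here, since the only probe set that names it names other genes too. For Pole, Rpa1, Rpa3, Fen1 and Rrm2 more than 1 probe set was present and the brighter one was used.

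Expression was measured in 8 clonal lines grown from mouse liver tumours, of which 4 came from tumours that resemble bile duct (intrahepatic cholangiocarcinoma, ICC) and 4 from tumours that resemble hepatocytes (hepatocellular carcinoma, HCC). All tumours were driven by c-Myc and NrasG12V on the pCaMIN vector in mice of the C57BL/6 strain, and all 8 lines carry both oncogenes. The vector reached the liver by local electroporation for ICC and by hydrodynamic tail vein injection for HCC, so tumour type and delivery cannot be told apart. The lines with a female label are ICC9, ICC10, HCC2.1 and HCC2.4, and those with a male label are ICC2.7, ICC2.9, HCC4 and HCC1. Each line is a single clone that was grown untreated in DMEM with 10% fetal calf serum in 7.5% CO2 and hybridised to 1 Affymetrix array. Whether lines share an animal or a tumour is not given in the labels, so the p-values rest on the spread among these clones alone, which may be partly technical. The labels give no animal ages.

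An origin of replication is marked by the origin recognition complex, onto which Cdc6 and Cdt1 load the ring of Mcm2, Mcm3, Mcm4, Mcm5, Mcm6 and Mcm7, the core of the replicative helicase. Cdc45 and the GINS complex then join the ring and start it moving, and primase, polymerases, the sliding clamp Pcna and its loader follow at the fork. Most of these genes are transcribed shortly before and during S phase under E2F factors, so their RNA is low in resting hepatocytes and high in dividing liver cells, such as those that regrow a resected liver or form a tumour.

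Each member was tested for a difference between ICC and HCC lines with limma over all genes, and 0 of the 42 passed at an adjusted p under 0.05 (20 had an unadjusted p under 0.05, all higher in ICC). The same test called 0.261% of all genes, 0.131% higher and 0.131% lower in ICC, and 14.1% had an unadjusted p under 0.05 (7.06% with the higher value in ICC). The difference was positive, that is higher in ICC lines, for 41 of the 42 members, against 50.3% of all genes. The mean difference over the members was 0.53 log2 units and the median 0.55, where the median over all genes was 0.00. Over the replication genes the mean log2 signal was 8.39 ± 0.35 for ICC (SD, n = 4) and 7.85 ± 0.38 for HCC (SD, n = 4), with no test on this mean because genes of a list are not replicates. In bulk RNA, fewer cells in S phase and less RNA per cell cannot be told apart.

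The mean over the 42 genes was 8.14 in ICC9, 8.07 in ICC10, 8.52 in ICC2.7 and 8.81 in ICC2.9, and 8.37 in HCC1, 7.49 in HCC4, 7.72 in HCC2.1 and 7.83 in HCC2.4. ICC2.9 stood highest and HCC4 lowest, and HCC1 lay above ICC9 and ICC10, so the types overlapped. The same order recurred gene by gene. ICC2.9 had the highest value of all lines for 36 of the 42 members, HCC4 had the lowest for 32, and HCC1 was the highest HCC line for 38. HCC1 lay above both ICC9 and ICC10 for 35 members and below both for 3. ICC2.7 and ICC2.9 both lay above ICC9 and ICC10 for 39 members. The shares of all genes with these line orders are not given here, and members measured on the same 8 arrays are not independent. The spread inside the HCC lines, from the lowest to the highest line, was larger than the difference between the types for 37 of the 42 (88.1%), and for 88.5% of all genes. The exceptions were Gins4, Cdt1, Orc1, Orc6 and E2f8. In the replication genes the median SD over the 8 lines was 0.45, against 0.19 over all genes. Of the 42 members 41 had a mean level above that of the median gene, and genes of like level were not compared.

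**Figure D1:**
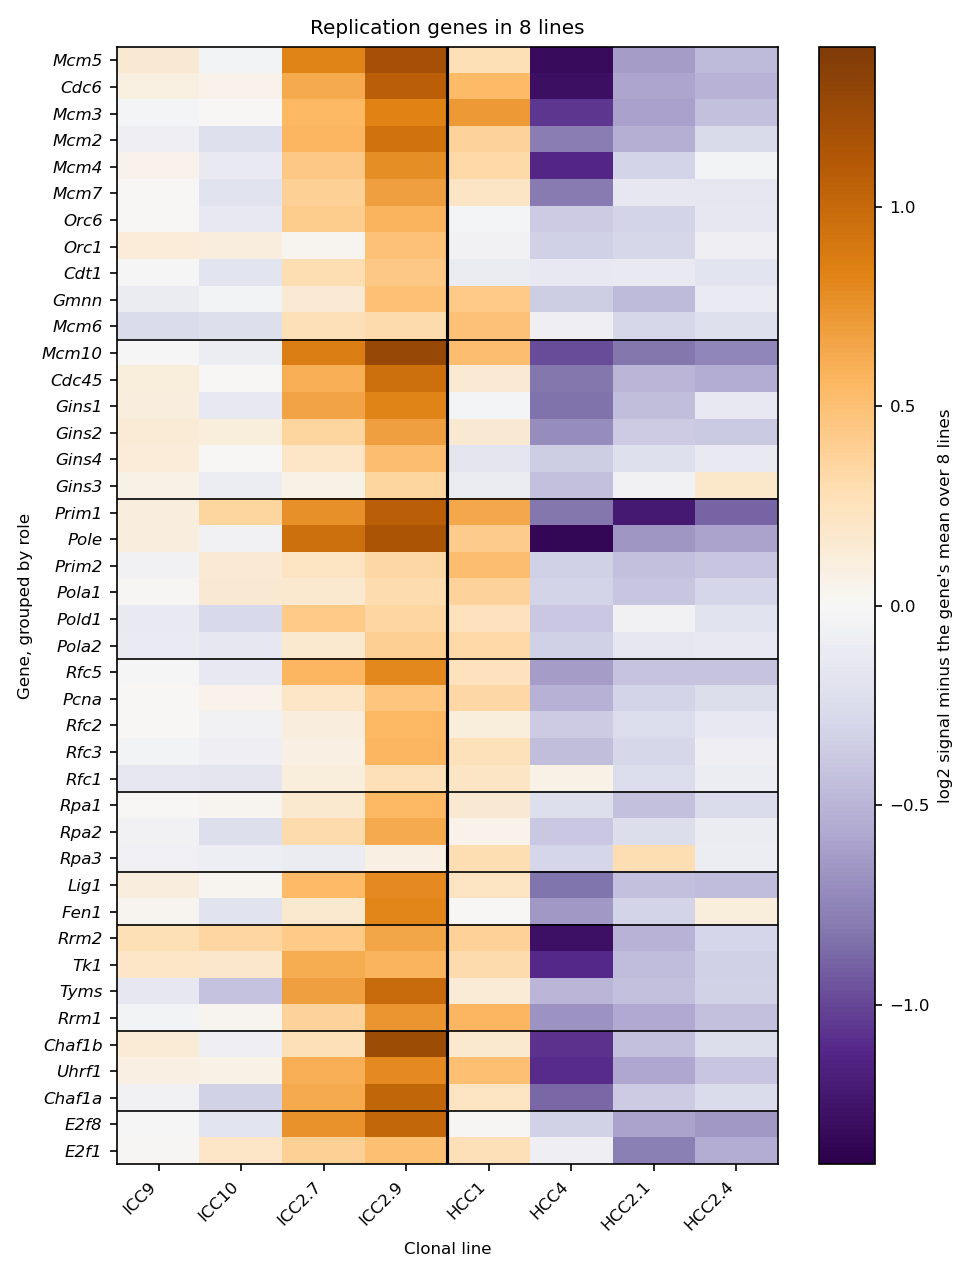
Heat map of 42 replication genes (rows, grouped by role) in 8 clonal lines (columns, ICC left and HCC right of the black line). Colour gives the log2 signal minus the gene's mean over the 8 lines. ICC2.9 is the highest line for 36 genes and HCC4 the lowest for 32, and HCC1 is the highest HCC line for 38.

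Promoters of the members are shown here because E2F binding words are a well known shared element of replication genes. Any link between these words and the order of the lines was not tested. Promoter windows from RefSeq (build GRCm38.p6, 250 bases before to 50 after a transcript start) were found for 34 of the 42 measured members. The windows were searched on both strands for the words TTTCCCGC, TTTCGCGC, TTTGCCGC and TTTGGCGC, which can overlap each other on opposite strands. A word was present in 13 of the 34 members (38.2%), against 3.26% of 16990 genes that a probe set names alone and that have a window, and 2.60% of all 27025 genes with a window. In the wider list of replication genes described further on it was present in 17 of 49 (34.7%). The median GC content of the windows was 61.3% for the members and 56.7% for genes named alone on the array. The E-box CACGTG, the element that Myc with Max binds, was present in 7 of the 34 members (20.6%) and 9.19% of the genes named alone. For CCAAT, the NF-Y element, the counts were 23 of the 34 (67.6%) and 41.6%, and for TTTGAA, a core of the cell cycle homology region of many mitotic genes, 5 of the 34 (14.7%) and 17.8%. A match is only a description of letters in this window, and a window without one says nothing about the factor.

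Stretches before the start of 6 members are printed from the RefSeq table, 5′ to 3′ on the strand of the gene, with the E2F words in capitals. Only members with an E2F word before the start could be printed. Prim1 and Mcm10, with large differences too, have windows without a word, and Pole has no window. Among members with a word, Mcm5, Cdc6 and Uhrf1 were chosen for large differences between the types. Orc1 was chosen as a member without overlap, and Gins3 and Mcm6 as members with small differences. Each line gives the gene, its position and the sequence.
Mcm5 (chr8:75109326-75109397, plus strand): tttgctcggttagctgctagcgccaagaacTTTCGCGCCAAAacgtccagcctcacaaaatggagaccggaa
Cdc6 (chr11:98907983-98908050, plus strand): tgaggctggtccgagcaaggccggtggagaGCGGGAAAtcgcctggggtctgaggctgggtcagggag
Uhrf1 (chr17:56304098-56304165, plus strand): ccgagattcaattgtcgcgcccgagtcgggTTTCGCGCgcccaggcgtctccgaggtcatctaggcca
Orc1 (chr4:108579397-108579453, plus strand): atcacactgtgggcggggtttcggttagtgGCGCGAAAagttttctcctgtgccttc
Gins3 (chr8:95633488-95633555, plus strand): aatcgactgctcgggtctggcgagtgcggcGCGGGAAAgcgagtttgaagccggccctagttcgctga
Mcm6 (chr1:128359715-128359845, minus strand): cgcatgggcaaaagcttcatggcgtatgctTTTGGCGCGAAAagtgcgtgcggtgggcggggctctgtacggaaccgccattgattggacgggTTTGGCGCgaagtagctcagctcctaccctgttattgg

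Mcm6 held 3 words in this stretch, more than any other member with a window, and 2 of the 3 overlap. Its difference between the types was 0.05, the second smallest of the positive ones. Mcm5 held 2 overlapping words and had a difference of 1.07. The median difference was 0.37 for the 13 members with a word and 0.56 for the 21 without, over ranges of 0.05 to 1.07 and -0.09 to 1.15, so both sets spanned most of the range of differences.

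**Figure D2:**
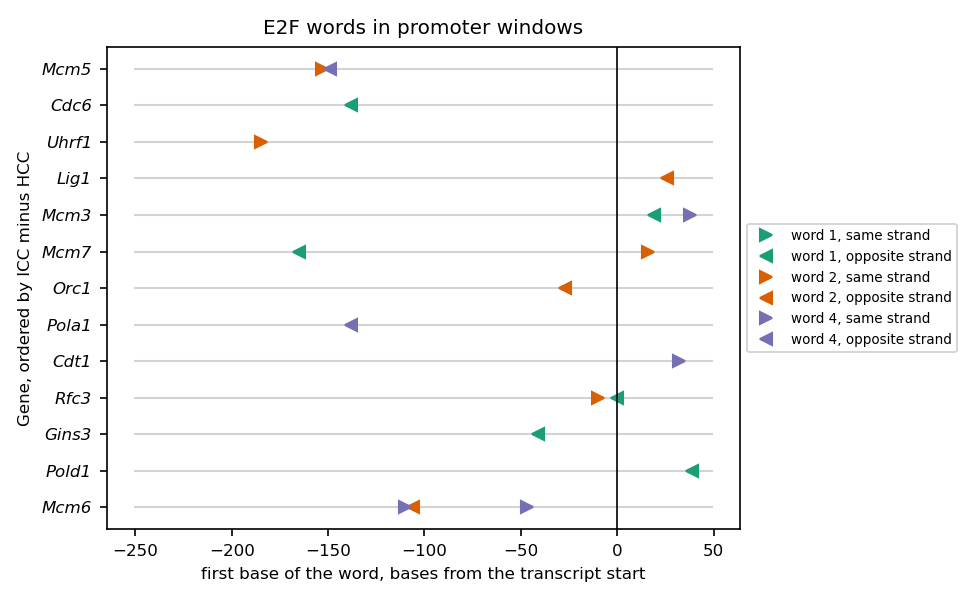
Position of the E2F words in the promoter windows of the 13 members that hold one (horizontal axis, first base of the word in bases from the transcript start; rows ordered by the log2 difference between ICC and HCC). Colours number the words in the order in which the text lists them (the third word occurs in no member window) and arrows give the strand. Mcm5, at the top, has a difference of 1.07 and Mcm6, at the bottom, 0.05.

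In what follows values are log2 signals, given in the order ICC9, ICC10, ICC2.7 and ICC2.9 for the ICC lines, and for the HCC lines in the order HCC1, HCC4, HCC2.1, then HCC2.4. Differences are ICC minus HCC with limma's moderated standard error, and adjusted p-values are Benjamini-Hochberg values from limma over all genes. These standard errors and p-values tend to be too small, for a reason given with the processing of the data. Levels of different genes come from different probes and are not set against each other.

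Of the 11 licensing genes, which mark origins and load the helicase, all 11 had a positive difference, 4 an unadjusted p under 0.05, and 0 passed. Mcm5, a subunit of the helicase ring, measured 8.41, 8.22, 9.08 and 9.44 in the ICC lines and 8.53, 6.94, 7.63 and 7.79 in the HCC lines. HCC1 lay between ICC9 and the male-labelled ICC lines while HCC4 was the lowest line, so the types overlapped. Mcm5 had a difference of 1.07 (SE 0.36, adjusted p = 0.244), a fold of 2.09. Orc1, an ATPase subunit of the origin recognition complex, measured 5.54, 5.51, 5.44 and 5.90 in the ICC lines and 5.36, 5.08, 5.12 and 5.34 in the HCC lines. All 4 ICC lines lay above all 4 HCC lines, a separation that 4.19% of all genes showed. Its difference was 0.37 (SE 0.12, adjusted p = 0.235), and its mean level lay below the median gene.

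Cdc6, which loads the helicase onto origins with Cdt1, measured 6.98, 6.94, 7.51 and 7.95 in the ICC lines and 7.43, 5.60, 6.30 and 6.38 in the HCC lines. HCC4 was lowest and HCC1 stood just under ICC2.7, and the difference of 0.92 carried a large error (SE 0.37, adjusted p = 0.316). Cdt1 itself measured 9.84, 9.67, 10.15 and 10.30 in the ICC lines and 9.75, 9.72, 9.73 and 9.68 in the HCC lines. The 4 HCC lines lay within 0.07 log2 units of each other, ICC10 lay just below them, and ICC9, ICC2.7 and ICC2.9 lay above them (difference 0.27, SE 0.14, adjusted p = 0.414). Gmnn, which encodes geminin, the inhibitor of Cdt1, measured 5.93, 5.99, 6.18 and 6.53 in the ICC lines and 6.46, 5.68, 5.56 and 5.91 in the HCC lines. The HCC1 value stood close to ICC2.9, the highest line, and the difference was 0.26 (SE 0.21, adjusted p = 0.628). Orc6, a small subunit of the origin recognition complex, measured 8.97, 8.82, 9.37 and 9.54 in the ICC lines and 8.93, 8.60, 8.65 and 8.81 in the HCC lines. ICC10 lay below HCC1, and the types overlapped at that point (difference 0.43, SE 0.17, adjusted p = 0.298).

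The other subunits of the helicase ring differed in how far the types lay apart. Mcm2 measured 9.03, 8.89, 9.66 and 10.03 in the ICC lines and 9.46, 8.32, 8.57 and 8.83 in the HCC lines, with HCC1 above ICC9 and ICC10 (difference 0.61, SE 0.31, adjusted p = 0.414). Mcm6 measured 9.73, 9.76, 10.25 and 10.30 in the ICC lines and 10.47, 9.91, 9.69 and 9.77 in the HCC lines. Here HCC1 was the highest of all 8 lines and the difference was 0.05 with a 95% interval of -0.41 to 0.51. Mcm3 reached 9.56 in HCC1, 7.79 in HCC4 and 9.68 in ICC2.9 (difference 0.69, SE 0.36). Mcm4 and Mcm7 had differences of 0.57 (SE 0.31) and 0.44 (SE 0.25). The mean over the 6 ring subunits was 9.19, 9.09, 9.72 and 10.01 in the ICC lines and 9.61, 8.36, 8.80 and 8.95 in the HCC lines, so HCC1 exceeded HCC4 by 1.25 log2 units, more than the mean difference between the types of 0.57.

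**Figure D3:**
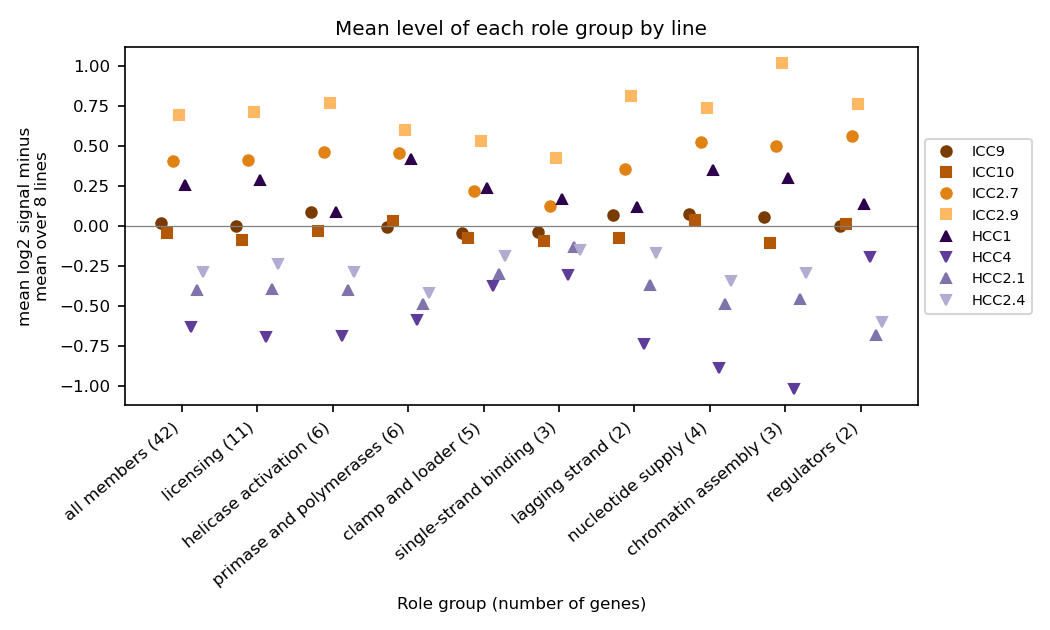
Mean log2 signal of each role group by line, minus the mean of the 8 lines (vertical axis), with the number of genes in brackets (horizontal axis). Points are single lines. ICC2.9 is highest in every group, and HCC1 (dark triangle) lies above the other HCC lines in every group; over all 42 genes it reaches 8.37 against 7.49 to 7.83 for the other HCC lines.

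Helicase activation genes turn the loaded ring into a moving helicase. All 6 had a positive difference and 5 an unadjusted p under 0.05, and 0 passed. Gins4, a subunit of the GINS complex, measured 8.98, 8.86, 9.06 and 9.37 in the ICC lines and 8.68, 8.50, 8.64 and 8.73 in the HCC lines. The lowest ICC line, ICC10, stood above the highest HCC line, HCC2.4, and the spread inside HCC lines (0.23) was smaller than the difference of 0.43 (SE 0.12, adjusted p = 0.175), the smallest adjusted p of all members. Gins4 and Orc1 were the 2 members of 42 whose types did not overlap, where 8.63% of all genes had no overlap in either direction.

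Another GINS subunit, Gins2, measured 7.75, 7.73, 7.97 and 8.29 in the ICC lines and 7.77, 6.91, 7.24 and 7.23 in the HCC lines. HCC1 stood level with ICC9 and ICC10 and the other HCC lines stood below (difference 0.65, SE 0.19, adjusted p = 0.198). Gins1 measured 6.54, 6.30, 7.10 and 7.26 in the ICC lines and 6.41, 5.60, 5.99 and 6.30 in the HCC lines, with ICC10 level with HCC2.4 and below HCC1 (difference 0.73, SE 0.25, adjusted p = 0.247). Gins3 measured 7.41, 7.24, 7.41 and 7.69 in the ICC lines and 7.23, 6.90, 7.29 and 7.53 in the HCC lines. HCC2.4 lay above 3 of the ICC lines, and the difference of 0.20 had a 95% interval of -0.14 to 0.54. The 4 subunits of this complex, which is built of one copy of each, thus had differences from 0.20 to 0.73. Cdc45, the third part of the moving helicase, had a difference of 0.85 (SE 0.26, adjusted p = 0.201). Mcm10, which helps to start the helicase, had 1.01 (SE 0.40), where HCC1 reached 7.73 and the rest of the HCC group 6.23 to 6.47.

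The primase and polymerase genes copy the strands, and all 6 differences were positive, 2 of them with an unadjusted p under 0.05. Prim1, the catalytic subunit of the primase that lays the RNA primers, measured 7.82, 8.07, 8.48 and 8.78 in the ICC lines and 8.35, 6.90, 6.50 and 6.82 in the HCC lines. HCC1 stood inside the ICC range while the other 3 HCC lines lay below every ICC line. The difference was 1.15 (SE 0.39, adjusted p = 0.242), the largest of all members and a fold of 2.21. Without HCC1 it was 1.55 and passed limma's test (adjusted p = 0.0411), the only member to do so without that line.

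Pole, the catalytic subunit of the polymerase of the leading strand, measured 7.92, 7.77, 8.77 and 8.97 in the ICC lines and 8.24, 6.47, 7.15 and 7.22 in the HCC lines. HCC4 was lowest and HCC1 lay above ICC9 and ICC10, and the difference was 1.09 (SE 0.39, adjusted p = 0.27). A second, dimmer probe set that names Pole gave a difference of 0.25 (SE 0.18). Pola2, the regulatory subunit of the polymerase that extends the primers, measured 9.22, 9.18, 9.50 and 9.73 in the ICC lines and 9.65, 9.00, 9.17 and 9.19 in the HCC lines. HCC1 lay near ICC2.9, and the difference was 0.16 with a 95% interval of -0.23 to 0.54. Prim2 and Pola1, partners of Prim1 and Pola2 in the same complex, were highest of all lines in HCC1, at 9.41 and 8.40. The 4 subunits of the primase and polymerase alpha complex therefore ranged in their difference from 0.16 to 1.15, with 0.32 for Pola1 and 0.33 for Prim2 (SE 0.17 and 0.21). Pold1, the catalytic subunit of the polymerase of the lagging strand, had a difference of 0.19 (SE 0.19).

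**Figure D4:**
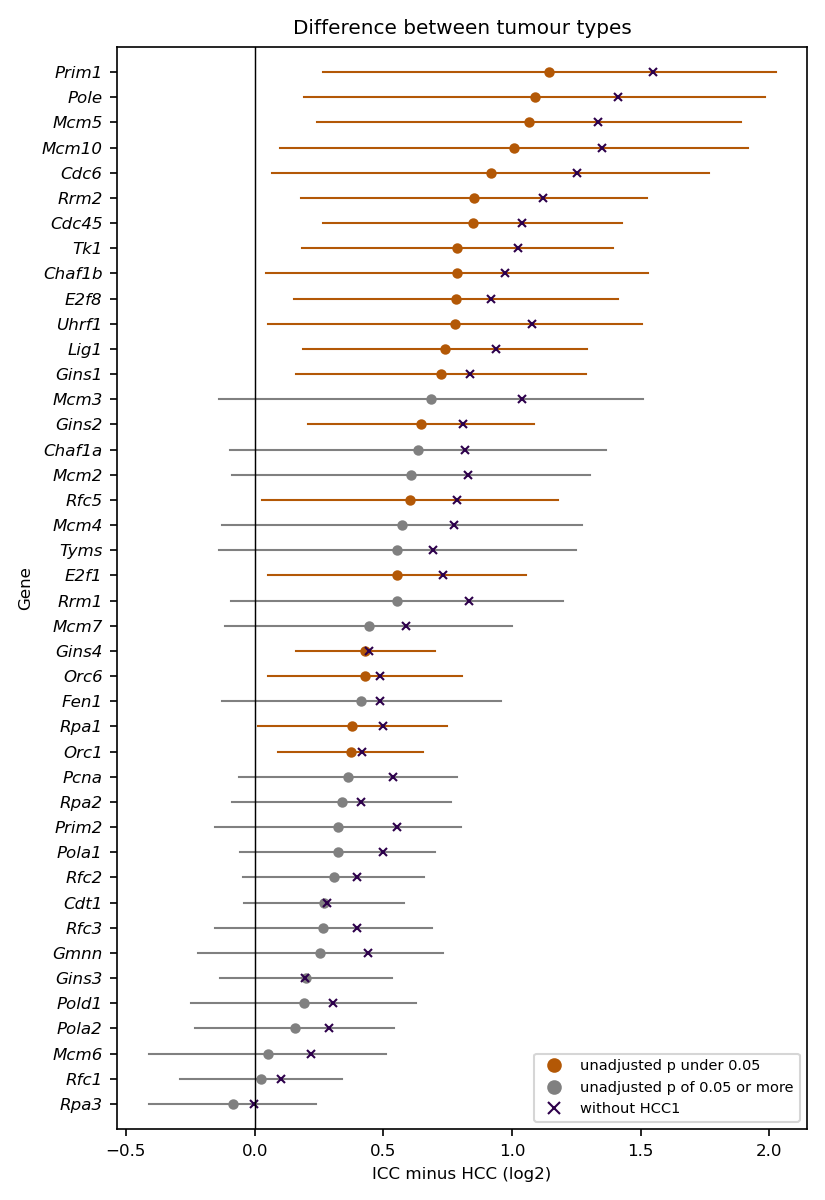
Difference between ICC and HCC for each of the 42 members (log2, horizontal axis), with limma's 95% interval over all 8 lines (n = 4 per type). Circles use all 8 lines and crosses leave out HCC1. Prim1 has the largest difference, 1.15, and 1.55 without HCC1; Rpa3 is the only negative one, at -0.09.

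Of the clamp and its loader, 5 genes were measured, all with a positive difference, 1 of them with an unadjusted p under 0.05. Pcna, the ring that holds polymerases on DNA, measured 10.67, 10.71, 10.86 and 11.13 in the ICC lines and 11.00, 10.14, 10.35 and 10.43 in the HCC lines. HCC1 lay above 3 of the 4 ICC lines, and the other HCC lines below all of them (difference 0.36, SE 0.19, adjusted p = 0.422). Rfc5, a small subunit of the loader, measured 7.52, 7.40, 8.11 and 8.34 in the ICC lines and 7.79, 6.91, 7.13 and 7.13 in the HCC lines, with HCC1 above ICC9 and ICC10 (difference 0.60, SE 0.25, adjusted p = 0.331). Rfc2 measured 7.68, 7.62, 7.78 and 8.22 in the ICC lines and 7.79, 7.31, 7.43 and 7.54 in the HCC lines. HCC1 stood level with ICC2.7, and the difference was 0.31 (SE 0.16, adjusted p = 0.414). Rfc1, the large subunit of the loader, measured 8.64, 8.63, 8.92 and 9.07 in the ICC lines and 9.02, 8.87, 8.56 and 8.71 in the HCC lines. All HCC lines but HCC2.1 lay above ICC9 and ICC10, and the difference was 0.03 with a 95% interval of -0.29 to 0.34. Rfc3 had a difference of 0.27 (SE 0.19).

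The 3 subunits of the single-strand binding complex, which coats the unwound DNA, had the smallest mean difference of the 9 role groups, 0.21. Rpa1, the large subunit, measured 8.38, 8.41, 8.55 and 8.93 in the ICC lines and 8.54, 8.15, 7.94 and 8.12 in the HCC lines, with HCC1 above ICC9 and ICC10 (difference 0.38, SE 0.16, adjusted p = 0.338). A second, dim probe set for Rpa1 gave -0.05 (SE 0.13). Rpa2 measured 7.47, 7.29, 7.83 and 8.15 in the ICC lines and 7.57, 7.13, 7.28 and 7.41 in the HCC lines, where ICC10 lay below HCC1 and HCC2.4 (difference 0.34, SE 0.19, adjusted p = 0.459). Rpa3, the small subunit, measured 8.53, 8.51, 8.49 and 8.68 in the ICC lines and 8.88, 8.29, 8.88 and 8.50 in the HCC lines. HCC1 and HCC2.1 were the highest lines. Its difference of -0.09 (SE 0.14, adjusted p = 0.833) was the only negative one among the members, and was 0.015 with the mean of its probe sets, of which the dimmer gave 0.12 (SE 0.09).

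**Figure D5:**
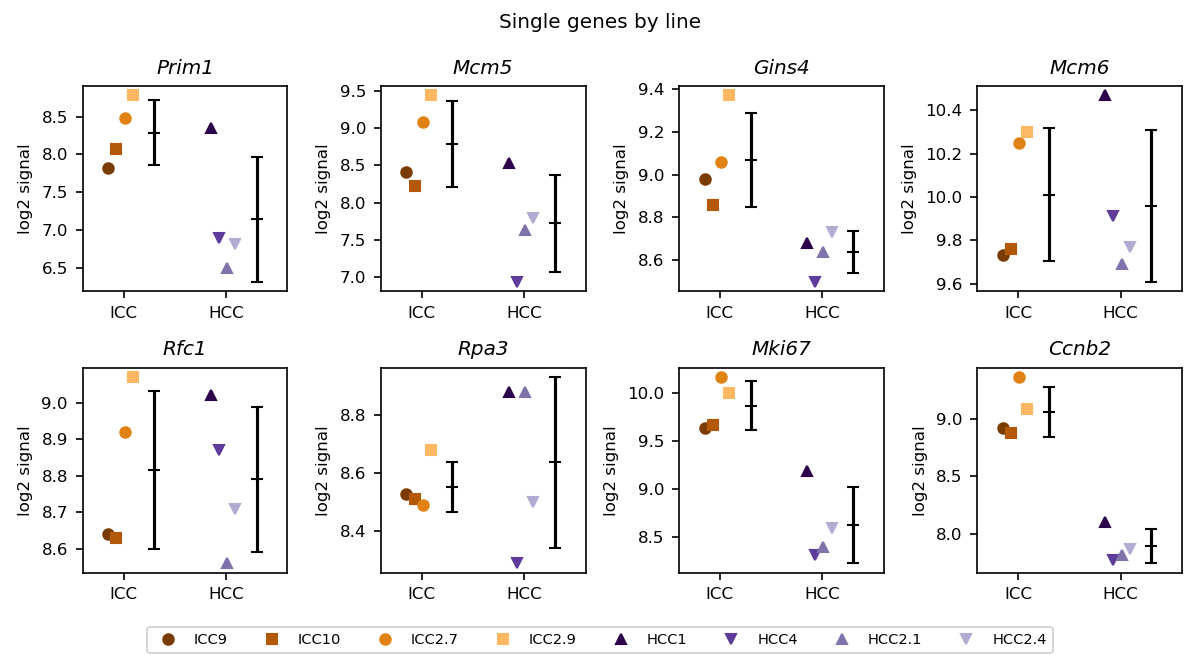
Log2 signal of 6 replication genes and of Mki67 and Ccnb2, markers of dividing cells, in each line (points). Vertical axes differ and do not start at 0. Bars give the mean and SD of each type (n = 4). HCC1 lies inside the ICC range for Prim1, Mcm5 and Rfc1, above all ICC lines for Mcm6 and Rpa3, and below all ICC lines for Gins4, Mki67 and Ccnb2.

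Fen1 and Lig1 finish the short fragments of the lagging strand, Fen1 by trimming their flaps and Lig1 by joining them. Lig1 measured 7.78, 7.71, 8.21 and 8.47 in the ICC lines and 7.90, 6.85, 7.24 and 7.22 in the HCC lines, with HCC1 above ICC9 and ICC10 and the other HCC lines below every ICC line (difference 0.74, SE 0.24, adjusted p = 0.231). Fen1 measured 6.66, 6.44, 6.80 and 7.45 in the ICC lines and 6.64, 5.98, 6.32 and 6.75 in the HCC lines. HCC2.4 lay above ICC9 and ICC10, and the difference was 0.42 (SE 0.24, adjusted p = 0.474). A second, dimmer probe set for Fen1 gave 0.20 (SE 0.12).

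All 4 genes of deoxynucleotide supply had a positive difference, 2 with an unadjusted p under 0.05. Tk1, which salvages thymidine, measured 8.46, 8.44, 8.88 and 8.83 in the ICC lines and 8.57, 7.15, 7.81 and 7.93 in the HCC lines. HCC1 lay above ICC9 and ICC10 and HCC4 well below every other line (difference 0.79, SE 0.27, adjusted p = 0.242). Rrm2, the S-phase subunit of ribonucleotide reductase, measured 9.05, 9.11, 9.20 and 9.42 in the ICC lines and 9.15, 7.49, 8.26 and 8.47 in the HCC lines. The ICC lines lay within 0.37 log2 units of each other while the HCC lines spanned 1.66 (difference 0.85, SE 0.30, adjusted p = 0.252). A second, dim probe set for Rrm2 gave 0.15 (SE 0.24). Tyms, which makes thymidylate, measured 7.12, 6.85, 7.95 and 8.26 in the ICC lines and 7.40, 6.78, 6.84 and 6.94 in the HCC lines. Here ICC2.7 and ICC2.9 stood apart from all other lines, ICC10 lay among the HCC lines, and the difference was 0.56 (SE 0.31, adjusted p = 0.454). Rrm1, the large reductase subunit, had a difference of 0.55 (SE 0.28), with HCC1 at 10.10 and HCC4 at 8.87.

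The chromatin genes had the largest mean difference of the role groups, 0.73, and the largest span inside HCC lines, 1.32. Uhrf1, which brings the maintenance methyltransferase to newly copied DNA, measured 8.30, 8.29, 8.82 and 9.01 in the ICC lines and 8.72, 7.12, 7.64 and 7.82 in the HCC lines, with HCC1 above ICC9 and ICC10 (difference 0.78, SE 0.32, adjusted p = 0.319). Chaf1b, a subunit of the factor that places histones on new DNA, measured 8.41, 8.21, 8.55 and 9.51 in the ICC lines and 8.45, 7.20, 7.85 and 8.04 in the HCC lines. ICC2.9 stood above all other lines and HCC4 below them (difference 0.79, SE 0.33, adjusted p = 0.328). Chaf1a, the large subunit of that factor, measured 6.99, 6.72, 7.67 and 8.06 in the ICC lines and 7.27, 6.16, 6.68 and 6.79 in the HCC lines. ICC10 lay below HCC1 and HCC2.4, and the difference was 0.64 (SE 0.32, adjusted p = 0.416).

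Both E2F regulators had a positive difference with an unadjusted p under 0.05. E2f1, an activator of S-phase genes, measured 7.84, 8.03, 8.21 and 8.33 in the ICC lines and 8.09, 7.76, 7.06 and 7.29 in the HCC lines. HCC2.1 and HCC2.4 were lowest, HCC4 lay just under ICC9 and HCC1 above ICC9 and ICC10 (difference 0.55, SE 0.22, adjusted p = 0.31). E2f8, an atypical member that represses E2F targets, measured 8.32, 8.16, 9.08 and 9.35 in the ICC lines and 8.35, 8.01, 7.74 and 7.68 in the HCC lines. HCC1 lay above ICC9 and ICC10, and ICC2.7 and ICC2.9 above all others (difference 0.78, SE 0.28, adjusted p = 0.26). With sex in the model E2f8 passed (adjusted p = 0.0363), the only member to do so, and did not once the missing direction was added as a covariate too (adjusted p = 0.0963). The missing direction is a weighted sum of the lines, with the largest weight on ICC9, that is close to 0 for every probe set of the deposited values. Both E2f1 and E2f8 put HCC2.1 and HCC2.4 below HCC4, unlike most members, 32 of which were lowest in HCC4.

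Leaving out HCC1 raised the mean difference over the members from 0.53 to 0.71. In that fit 31 of the 42 members had an unadjusted p under 0.05 (13.7% of all genes), all 31 higher in ICC (7.01% of all genes), and 1, Prim1, passed as higher in ICC (0.491% of all genes passed, and 0.289% in that direction). All ICC lines lay above the other 3 HCC lines for 27 of the 42 members (64.3%), against 7.37% of all genes. HCC1 exceeded the mean of the other HCC lines by 0.69 over the members, from 0.36 in the single-strand binding group to 0.92 in nucleotide supply. Of single members it was most for Prim1 (1.61) and Mcm3 (1.41), and near zero for Gins3 (-0.01), Cdt1 (0.04) and Gins4 (0.06). Leaving out HCC1 after seeing its values describes these lines and is no test of the types.

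The 3 genes listed as markers of dividing cells did not all place HCC1 alike. Mki67, a marker of dividing cells, measured 9.64, 9.67, 10.17 and 10.00 in the ICC lines and 9.19, 8.31, 8.39 and 8.59 in the HCC lines, and Ccnb2, the mitotic cyclin B2, measured 8.92, 8.88, 9.36 and 9.08 in the ICC lines and 8.11, 7.78, 7.82 and 7.87 in the HCC lines. For both genes HCC1 was the highest HCC line but lay below every ICC line. Top2a, a topoisomerase that untangles copied chromosomes, measured 9.71, 9.84, 10.11 and 10.26 in the ICC lines and 9.91, 8.72, 8.78 and 8.94 in the HCC lines, with HCC1 above ICC9 and ICC10 as in most replication genes. HCC1 minus the mean of ICC9 and ICC10 was -0.47 log2 units for Mki67, -0.79 for Ccnb2 and 0.14 for Top2a. The same quantity over the replication genes had a median of 0.31 and was positive for 37 of the 42, against 49.1% of all genes. It reached its lowest value, -0.24, in Gins4. These values are a description and were not tested. Ccnb2 passed the test between types (difference 1.17, limma's adjusted p = 0.014), and Mki67 did not (1.25, adjusted p = 0.0551). The call of Ccnb2 was lost when the missing direction was a covariate (adjusted p = 0.0522) and without ICC9 (0.0634), HCC2.1 (0.0612) or HCC2.4 (0.0696). Of the genes that share a name with the driving oncogenes, Myc had a difference of 0.05 (SE 0.20) and Nras, at 10.03 to 10.21 in the 8 lines, of 0.05 (SE 0.08). Myc was lowest in HCC4, at 7.85, against 8.31 to 8.75 in the other lines.

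Of 60 further genes of the pathway, fixed as a list, 55 were measured. Limma called 0 of the 55 over all genes and 20 had an unadjusted p under 0.05 (14.1% of all genes did). Among these, Rad17 was lower in ICC lines (difference -0.26, SE 0.09). The difference was positive for 48 and not positive for the rest, averaging 0.39 with median 0.35. The smallest p-values belonged to Ccna2, the S-phase and G2 cyclin, Asf1b, a histone chaperone, Pclaf, a partner of Pcna, and Orc3, an origin recognition subunit. Ccna2 measured 9.33, 9.43, 9.91 and 9.80 in the ICC lines and 9.31, 8.15, 8.17 and 8.47 in the HCC lines, and all ICC lines lay above all HCC lines (difference 1.09, SE 0.26, adjusted p = 0.125). Pclaf measured 7.38, 7.41, 7.87 and 8.13 in the ICC lines and 7.36, 6.12, 6.25 and 6.50 in the HCC lines, with HCC1 just under ICC9, the lowest ICC line (difference 1.14, SE 0.28, adjusted p = 0.136). HCC1 also stood just under the lowest ICC line for Asf1b, which measured 7.79, 7.71, 8.23 and 8.52 in the ICC lines and 7.66, 6.76, 6.98 and 7.09 in the HCC lines (difference 0.94, SE 0.23, adjusted p = 0.136). Orc3, which did not share the high HCC1 value of the other genes, measured 8.92, 8.86, 9.13 and 8.96 in the ICC lines and 8.47, 8.75, 8.54 and 8.56 in the HCC lines (difference 0.39, SE 0.10, adjusted p = 0.136). Without HCC1, 3 of the 55 passed, all higher in ICC, namely Ccna2, Pclaf and Top2a (limma's adjusted p = 0.0271, 0.0399 and 0.0276). In that fit 0.491% of all genes passed, and 0.289% passed as higher in ICC. HCC1 was left out after its values were seen, so this is no test of the types. The mean over these 55 genes was 8.12 in HCC1, above ICC9 (7.93) and ICC10 (7.90), and 7.56 to 7.70 in the other HCC lines.

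Sex labels were compared with tumour type in the model. Of the 42 members 1 passed, E2f8, with a female minus male difference of -0.72 (SE 0.14, adjusted p = 0.0359), where 2.94% of all genes passed and 1.47% passed as lower in female-labelled lines. The difference was negative for 40 of the 42 members, against 48.7% of all genes, and 9 members had an unadjusted p under 0.05 (17.5% of all genes). E2f1 (-0.54, adjusted p = 0.0693), Rfc1 (-0.34, 0.0755) and Mcm6 (-0.50, 0.0767) followed E2f8 in the order of limma's p. For Rfc1 and Mcm6, whose differences between the types were close to 0, all 4 male-labelled lines lay above the female-labelled ones. The call of E2f8 was lost with the missing direction as a covariate (adjusted p = 0.0868) and on leaving out ICC9, ICC10, ICC2.7, ICC2.9, HCC1, HCC2.1 or HCC2.4, each in turn, after which 0 members were called by limma. Leaving out HCC4 gave 18 called members, all lower in female-labelled lines. HCC4 is male-labelled and was the lowest line for 32 members, and the share of all genes called in that fit is not given here. The 18 therefore cannot be read as particular to the members. Within a type the 2 lines of a sex label also share the form of their names (with or without the prefix 2), so the label and the origin of the lines cannot be told apart there.

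The difference between the types was 0.74 over the members among the male-labelled lines and 0.33 among the female-labelled lines. The test of this interaction called 0 of the 42 members and 0% of all genes, and 6 members had an unadjusted p under 0.05 (20.1% of all genes did). The missing direction overlaps this interaction, so a gene with an interaction must also show residual spread. That limits how small the p-values of this test can be, and the lack of calls cannot be read as a lack of interaction. The smallest p-values were those of Tyms, with a difference of 1.02 among male-labelled and 0.10 among female-labelled lines (limma's adjusted p = 0.17), and Cdt1, with 0.49 and 0.05 (adjusted p = 0.188). Orc6 (0.69 and 0.17) and Gins1 (1.18 and 0.28) came next. Fitted apart, with 2 lines of each type, limma called 9 members among the female-labelled lines, all higher in ICC, and 0 among the male-labelled lines (3.14% and 0.902% of all genes). The female-labelled ICC lines, ICC9 and ICC10, carry the largest weights of the missing direction, with opposite signs (-0.78 and 0.54). Their closeness may be partly set by that direction, so these 2 counts cannot be compared. The interaction was positive, with the larger difference among male-labelled lines, for 38 of the 42 (48.1% of all genes) and negative for Pola1, Prim1, Prim2 and E2f1.

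The labelled tumour types were checked against 20 marker genes. Of the hepatocyte markers Alb, Ttr, Apoa1 and Afp had means over the 8 lines below the median gene (5.66), and Hnf4a reached 7.06 to 7.26 in HCC2.1 and HCC2.4 and 5.32 to 5.92 in the other lines. Bile duct Sox9 was at 11.45 to 11.86 in all lines and Epcam at 4.14 to 5.12, and Krt19 at 5.60 to 9.26, with overlap of the types for each. Krt7, also of bile duct, was at 5.98 to 6.04 in ICC and 5.84 to 5.98 in HCC lines, with ICC10 and HCC4 both at 5.98. The endothelial markers Pecam1 and Cdh5 were at 5.07 to 6.00 and 4.50 to 4.91. The leukocyte markers Ptprc and Adgre1 lay at 3.40 to 4.11, while Cd68 lay at 7.31 to 10.21. The mean of 3 fibroblast markers was 6.48 to 9.02 in ICC and 6.65 to 7.01 in HCC lines; Col1a1 and Pdgfrb were highest in ICC2.7 and ICC2.9, the lines above ICC9 and ICC10 for 39 replication genes, while Col1a2 was highest in HCC4 (6.78, with 6.69 in ICC2.7 and 6.77 in ICC2.9), and their part in the result was not tested. The mean of 3 markers of dividing cells was 9.42 to 9.88 in ICC and 8.27 to 9.07 in HCC lines, with HCC1 the highest HCC line, and their part in the result was not tested. Array medians ran from 5.02 to 5.09 log2 units.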

How the data were processed

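The deposited values are log2 signals that the authors made with RMA in oligo, per the submitters' processing notes, whose versions are not given. RNA of 100 ng per line was prepared with a WT PLUS kit, per the labels' protocols. Of 39993 probe sets, 23521 named 1 gene, and for each of 22180 genes the set with the highest mean over the 8 lines was used. No other normalization or filter on low values was applied. Array medians were 5.02 to 5.09, and 1 array per line limits the precision.

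Tumour types were compared in R 4.3.3 by a linear model per gene with moderated variances (limma 3.58.1). Tests were two-sided, and p-values were adjusted over all genes by the method of Benjamini and Hochberg, with a threshold of 0.05. Sex was tested with type in the model, and the interaction with both. The fit was tested on simulated data. Figures and promoter searches used Python 3.11.15 and matplotlib 3.10.9. The 8 deposited columns span 7 directions, since a weighted sum of the lines, with the largest weight on ICC9 (-0.78), is close to 0 in every probe set. Its weights cancel within each tumour type and within each sex label, so it takes up spread that the type and sex fits count as free. The standard errors and p-values of those fits therefore tend to be too small. The missing direction was tried as a covariate, which takes this into account. Other alternatives were median centring, quantile normalization, genes above the median level, the mean of probe sets, trended and robust moderation, array weights, a random block of type and sex, sex in the model, lines of each sex label alone, and leaving out each line.

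The members and lists were chosen with earlier results of these data known. Values by line are given for the members with the smallest p-values and the largest in each role group, for members fixed by name, for called members, and for the 4 smallest p-values in the wider list and in the sex and interaction tests. Mki67, Ccnb2, Myc and Nras were fixed as well. Values quoted for further members were chosen after they were seen.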

Additional observations from a re-analysis of the deposited data

Results flagged for a closer look

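In 3 of the 86 groups of 4 lines examined (each measured member and the mean over the members, within ICC and within HCC), the highest or lowest line stood further from the rest than Dixon's 95% critical value allows. Chance flags about 1 in 20 such groups. All 3 concern HCC1 as the highest HCC line. Mcm10, which helps to start the helicase, was at 7.73 in HCC1 and at 6.23 to 6.47 in the other HCC lines. Pola1, the catalytic subunit of the polymerase that extends primers, was at 8.40 in HCC1 and at 7.64 to 7.74 in the others. Prim2, the large primase subunit, was at 9.41 in HCC1 and at 8.45 to 8.55 in the others.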

How the results depend on the processing

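Of the 42 members, limma called between ICC and HCC 4 with array weights, 1 with sex in the model and 9 among female-labelled lines alone. Leaving out each line gave 0 to 1 calls, the 1 on leaving out HCC1. For the 55 genes of the wider list these counts were 7, 1 and 6, and 0 to 3 on leaving out each line, the 3 without HCC1. Over all genes, where 58 were called, the count was 103 for genes above the median level, 2278 with array weights, 6 with the random block, 428 with sex, 12 with the missing direction, 119 with both (an alternative chosen after seeing the data), 696 for female-labelled and 200 for male-labelled lines alone. Without 1 line it was 2 to 109, namely 2 without ICC9, 16 without ICC2.7, 28 without ICC2.9, 109 without HCC1, 91 without HCC4, 4 without HCC2.1 and 5 without HCC2.4. Array weights rested on an estimate that stopped before it converged and gave ICC9 a weight of 71.6. Counts for female-labelled lines alone carry the limit given above for ICC9 and ICC10.

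The sex label called 1 member in the main comparison and 4 among genes above the median level. With array weights there were 8, and with the missing direction 0. Leaving out a line gave 0 to 18, the 18 without HCC4. The shares of all genes called by sex label under these alternatives are not given here, so the counts cannot be read as particular to the members. The interaction called 0 members under every alternative that could be fitted, a test with the limit given above. The mean difference over the members stayed between 0.39 and 0.71 on leaving out each line.

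Of 814 values of single genes under alternatives, 754 kept direction and call, 30 passed where they had not, 14 no longer passed and 16 changed sign. The sign changed for Rpa3 with the mean of probe sets (0.015), for Mcm6 (-0.16), Rfc1 (-0.098) and Pola2 (-0.018) with array weights, and for Gins3 (-0.085) and Myc (-0.10) among female-labelled lines. On leaving out each line, Mcm6 ranged from -0.047 without ICC2.9 to 0.22 without HCC1, Rfc1 from -0.06 without ICC2.9 to 0.10 without HCC1, and Myc from -0.15 without HCC4 to 0.15 without HCC1. The causes were not tested. With 4 lines per type, differences below the printed standard errors cannot be resolved, and a difference above its standard error need not be resolved either. Gins4, at 0.43 (SE 0.12), did not pass (limma's adjusted p = 0.175). No paired analysis was possible because the labels give the lines no replicate numbers shared between types.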
